A study of Homo sapiens with 15 samples.

Results

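The precursor B line Reh was compared with 2 mature B lines, Namalwa and SU-DHL-4. Arrays were chosen by title, Reh_1 and Reh_2 against Namalwa_1, Namalwa_2 and SU-DHL-4, which are 5 of the 15 arrays in the series. Reh was labelled as B acute lymphoblastic leukemia, Namalwa as Burkitt lymphoma and SU-DHL-4 as B non Hodgkin lymphoma. The other 10 arrays hold 6 Hodgkin lymphoma lines and entered the fit to estimate the spread between duplicate arrays. All are established human cell lines, and the labels give no treatment, engineered allele or time point for any of them. Reh and Namalwa were hybridised as biological duplicates, whereas SU-DHL-4 had 1 array. The leukaemia is therefore represented by 1 line and mature B cell lymphoma by 2, so every p-value below compares these lines and not the stages of B cell development they are taken to stand for.

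A precursor B cell assembles its immunoglobulin genes in the bone marrow. RAG1 and RAG2 cut the gene segments, terminal deoxynucleotidyl transferase (DNTT) adds bases at the joints, and the first heavy chain is tested at the surface in a pre-B receptor with a surrogate light chain made of IGLL1 and VPREB1. A mature B cell has switched this machinery off and carries antigens such as CD20 (MS4A1), CD37 and the Fc receptor-like proteins. Reh is known to carry the ETV6-RUNX1 fusion, the product of a common translocation in childhood B cell leukaemia.

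Expression was measured on Affymetrix U133 Plus 2.0 arrays as log2 RMA signal, with the brightest probe set standing for each of 19775 genes. Differences are Reh minus the mean of Namalwa and SU-DHL-4, these 2 lines weighted equally, so that 1 unit is a doubling of signal. A gene was called when its Benjamini-Hochberg adjusted p in limma was under 0.05 over all genes. A signal level cannot be compared between genes, since probe sets differ in brightness.

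The duplicate Reh arrays differed from each other, and the difference followed SU-DHL-4. Of 22 genes that stood at least 3 log2 units higher in SU-DHL-4 than on every other array apart from Reh_1, 21 were more than 1 log2 unit higher in Reh_1 than in Reh_2, with a median difference of 4.0 and a range of 0.54 to 7.35. Genes chosen in the same way for Namalwa or a Hodgkin line had median differences between -0.08 and 0.25. On the linear scale, Reh_1 held a median of 32.4% of the SU-DHL-4 signal above Reh_2 over the 22 genes (quartiles 21.7% and 49.1%). The 55 genes highest in Reh_2 had a median of 50.8% of their Reh_2 signal in Reh_1. What put this signal on Reh_1 was not tested. Its label is kept here, and most counts are given with both Reh arrays and with Reh_2 alone. In the second case limma takes the lone array to vary like the duplicates of the other lines. Namalwa_2 had the lowest upper quartile of the 15 arrays, 7.31 log2 units, and array medians lay between 5.50 and 5.57.

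**Figure D1:**
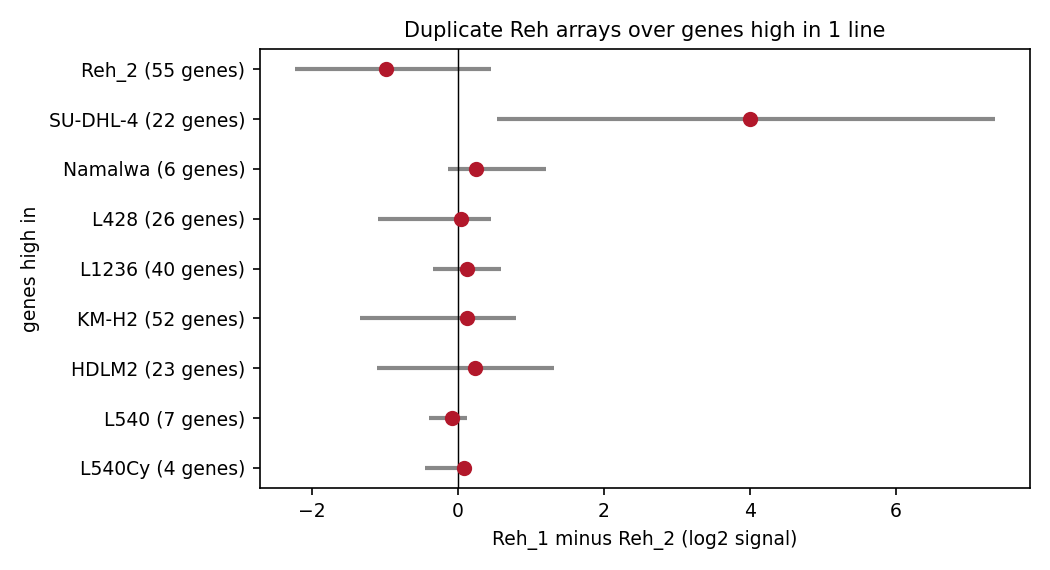
Reh_1 minus Reh_2 in log2 signal (x axis) over genes at least 3 log2 units higher in the named line than on every other array, with Reh_1 left out of the choice (y axis, number of genes in brackets). Points are medians and bars run from the lowest to the highest gene. The median is 4.0 for the 22 genes high in SU-DHL-4, -0.98 for the 55 genes high in Reh_2, and between -0.08 and 0.25 for the other lines.

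The labelled cell types were set beside marker genes. The precursor panel holds DNTT, PCLO, IGLL1 and ERG, the markers named for this comparison, and was chosen with earlier results known. Its count therefore describes Reh and does not test the label. Of 8 precursor B cell markers, 7 had a log2 signal of at least 6 in each Reh array, against 4 in Namalwa_1, 5 in Namalwa_2 and 1 in SU-DHL-4. The 7 included CD34, and the exception was VPREB1, at 4.18 and 3.65 in Reh. All 4 measured pan-B markers passed that level in Reh, Namalwa and SU-DHL-4 alike. A panel of 7 mature B markers did not separate the lines by this level, with 5 in Reh_1 and 4 in Reh_2, against 5 in Namalwa_1, 6 in Namalwa_2 and 5 in SU-DHL-4. Its median signal was 10.11 and 6.43 in Reh, against 7.98 and 7.56 in Namalwa and 8.93 in SU-DHL-4. CD34, the surface marker of haematopoietic progenitors, did not separate the lines, at 6.23 and 6.07 in Reh, against 6.35 and 6.32 in Namalwa and 6.12 in SU-DHL-4 (difference -0.08 ± 0.18 SE, limma adjusted p = 0.859).

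With both Reh arrays, 1607 genes were higher in Reh (8.13% of those tested) and 793 were lower (4.01%). These shares of all genes are the ones to set beside the list counts below, which were not tested. With Reh_2 alone, 1974 were higher (9.98%) and 1187 lower (6.0%). The calls shared by both fits were 1461 higher genes, which is 90.9% of the first set and 74.0% of the second, and 620 lower genes, which is 78.2% and 52.2%. No gene was called in opposite directions. Among the lower genes gained with Reh_2 alone, 373 of 567 had a Reh_1 signal more than 1 log2 unit above Reh_2, whereas 0 of the 513 higher genes gained had. Both Reh arrays lay above all 3 mature arrays for 13.9% of genes and below all 3 for 14.3%. Reh_2 by itself lay above all 3 for 25.0% and below all 3 for 32.3%.

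Those calls ask whether the lines differ by more than duplicate arrays do. A fit to line means asks whether they differ by more than lines of the same group do. It held 8 line means in the groups Reh, mature B and Hodgkin, with 5 residual degrees of freedom. Reh has 1 mean and gives no spread, so most of the spread came from the 5 Hodgkin means. A call between line means therefore depends largely on how much the Hodgkin lines vary, and not on Reh and the mature lines only. When each line was reduced to 1 mean and the spread was taken between lines, L540 and L540Cy counting as 1, 123 genes were higher in Reh (0.622%) and 19 were lower (0.0961%). With Reh_2 alone 187 were higher (0.946%) and 59 lower (0.298%). Against each mature line on its own, with both Reh arrays, 722 genes were higher in Reh than in both and 160 were lower than in both. Reh_1, with its SU-DHL-4 signal, enters these 2 counts. The share of calls that were higher was 67.0% with both Reh arrays. It was 53.9% when every array was centred on its own median over genes, which moved the median difference of all genes to -0.15, against -0.05 as deposited.

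The recombination genes were high in Reh. In bulk RNA, fewer cells with a transcript and less of it per cell cannot be told apart. DNTT had log2 signals of 13.25 and 14.20 in Reh, against 5.87 and 7.16 in Namalwa and 5.32 in SU-DHL-4 (difference 7.81 ± 0.38 SE, limma adjusted p = 1.69e-06). RAG1, the endonuclease subunit that cuts at recombination signals, read 11.09 and 12.17 in Reh, against 4.70 and 4.50 in Namalwa and 4.09 in SU-DHL-4 (difference 7.29 ± 0.28). RAG2, its partner, read 9.96 and 11.07 in Reh, against 6.51 and 7.98 in Namalwa and 3.35 in SU-DHL-4 (difference 5.21 ± 0.42). For all of these genes both Reh arrays lay above every mature array, and for RAG2 the Namalwa arrays stood between Reh and SU-DHL-4. With Reh_2 alone the differences were 8.28 for DNTT, 7.83 for RAG1 and 5.77 for RAG2. DNTT and RAG1 were also called between line means (adjusted p = 0.000637 and 7.93e-05), whereas RAG2 was not (adjusted p = 0.409).

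The surrogate light chain genes did not move together. IGLL1 read 12.38 and 13.12 in Reh, against 11.60 and 12.84 in Namalwa and 4.74 in SU-DHL-4 (difference 4.27 ± 0.33, adjusted p = 2.63e-05). The Reh and Namalwa arrays overlapped, and the difference lay against SU-DHL-4. VPREB1, the other component of the surrogate light chain, read 4.18 and 3.65 in Reh, against 10.01 and 10.11 in Namalwa and 5.46 in SU-DHL-4 (difference -3.84 ± 0.20, adjusted p = 2.55e-06). Namalwa was the high line, and both Reh arrays lay below all mature arrays. VPREB3, a related chain found inside B cells, read 12.49 and 12.30 in Reh, against 10.85 and 10.76 in Namalwa and 12.25 in SU-DHL-4. Its difference of 0.86 ± 0.22 was called with both arrays (adjusted p = 0.0279) and not with Reh_2 alone (0.77 ± 0.27).

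The promoters of DNTT, RAG1, RAG2, IGLL1 and VPREB1 are shown, the first 5 called genes of a set list. These are reference sequences, the same for every line, so they hold no information on differences between the lines. The sequences come from RefSeq on build GRCh38.p14 and cover the annotated start of each gene and mostly the bases before it, 300 in all. Capitals mark matches on either strand to CCCNNGGG (an EBF1 motif), CAGGTG (an E box bound by E proteins), TGTGGT (a RUNX motif) or ATGCAAAT (the octamer). DNTT lies at chr10:96304184-96304483 on the plus strand, RAG1 at chr11:36510103-36510402 on the plus strand, RAG2 at chr11:36598187-36598486 on the minus strand, IGLL1 at chr22:23580241-23580540 on the minus strand and VPREB1 at chr22:22244536-22244835 on the plus strand.
DNTT: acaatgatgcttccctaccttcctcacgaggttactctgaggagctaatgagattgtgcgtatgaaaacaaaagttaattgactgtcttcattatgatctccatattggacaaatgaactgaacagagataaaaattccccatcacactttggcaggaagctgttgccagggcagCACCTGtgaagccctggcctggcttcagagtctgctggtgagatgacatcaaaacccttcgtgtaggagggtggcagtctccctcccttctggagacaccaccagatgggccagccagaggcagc
RAG1: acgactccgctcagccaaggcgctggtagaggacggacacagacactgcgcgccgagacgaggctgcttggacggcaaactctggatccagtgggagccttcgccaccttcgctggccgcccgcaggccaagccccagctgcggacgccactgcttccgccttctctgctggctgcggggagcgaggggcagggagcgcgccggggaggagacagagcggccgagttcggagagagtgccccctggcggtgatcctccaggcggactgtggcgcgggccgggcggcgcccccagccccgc
RAG2: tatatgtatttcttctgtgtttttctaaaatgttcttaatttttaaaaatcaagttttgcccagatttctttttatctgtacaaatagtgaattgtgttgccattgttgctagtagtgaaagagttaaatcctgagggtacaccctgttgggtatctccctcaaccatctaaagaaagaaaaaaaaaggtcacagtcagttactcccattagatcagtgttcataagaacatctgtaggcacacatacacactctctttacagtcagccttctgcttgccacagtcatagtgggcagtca
IGLL1: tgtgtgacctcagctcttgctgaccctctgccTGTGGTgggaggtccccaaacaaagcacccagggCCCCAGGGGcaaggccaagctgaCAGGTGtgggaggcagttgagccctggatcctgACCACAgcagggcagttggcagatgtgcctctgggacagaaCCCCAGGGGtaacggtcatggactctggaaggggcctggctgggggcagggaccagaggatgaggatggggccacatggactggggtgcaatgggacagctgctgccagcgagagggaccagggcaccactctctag
VPREB1: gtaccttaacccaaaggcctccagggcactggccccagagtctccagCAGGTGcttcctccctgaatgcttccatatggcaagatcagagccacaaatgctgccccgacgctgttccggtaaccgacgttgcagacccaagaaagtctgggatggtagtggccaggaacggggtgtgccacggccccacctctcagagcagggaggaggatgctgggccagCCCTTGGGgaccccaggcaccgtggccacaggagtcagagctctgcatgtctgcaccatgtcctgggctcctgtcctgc
Of 35116 RefSeq promoters of this length, 19.1% hold the EBF1 motif, 20.6% this E box, 13.1% the RUNX motif and 1.8% the octamer. The IGLL1 window holds 4 overlapping EBF1 matches in 2 places, 1 E box and 2 RUNX matches. The VPREB1 window holds 1 EBF1 match and 1 E box, the DNTT window holds 1 E box, and the RAG1 and RAG2 windows hold none of the 4 motifs. The matches are descriptions of the sequence and were not tested as binding sites. Each window covers 1 annotated start of its gene, and whether these lines use that start was not tested. A window without a match therefore does not describe other starts of the gene.

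**Figure D2:**
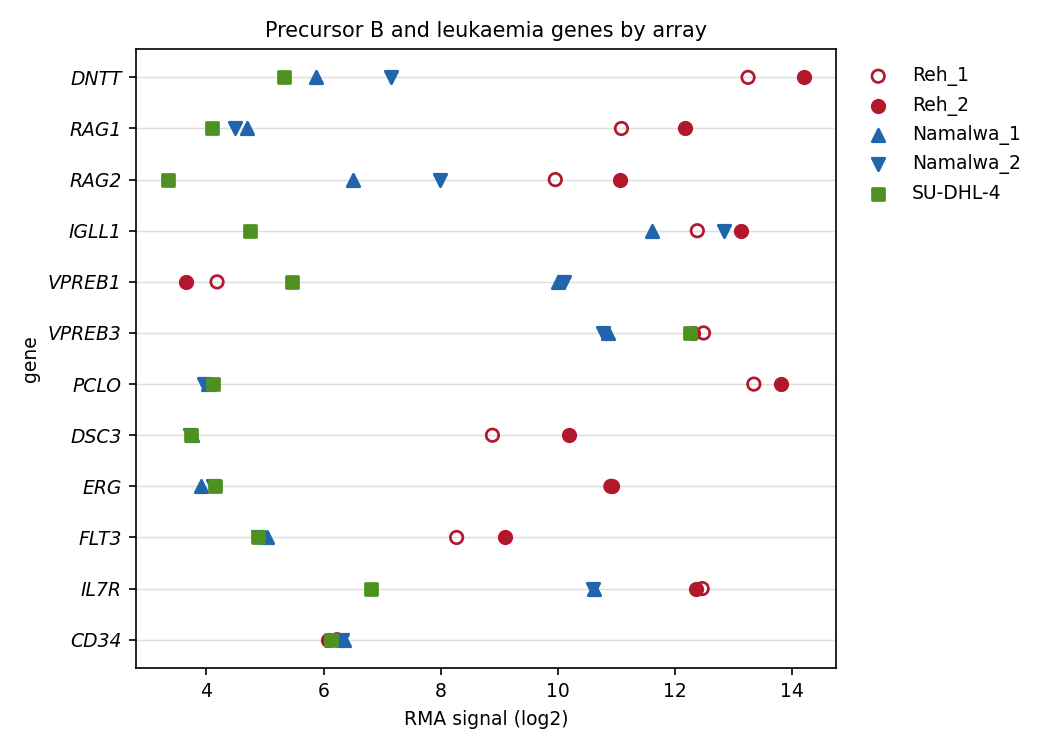
Log2 RMA signal (x axis) of 12 genes (y axis) on the 5 arrays, Reh_1 as open circles, Reh_2 as filled circles, Namalwa_1 and Namalwa_2 as triangles and SU-DHL-4 as squares. Reh stands apart to the right for DNTT, RAG1, RAG2, PCLO, DSC3, ERG and FLT3, overlaps Namalwa for IGLL1 and lies to the left for VPREB1.

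Over the 21 genes listed for precursor B cells, 12 rose and 1 fell, 8 did not pass, and the median difference was 1.88, against -0.05 over all genes. With Reh_2 alone 11 rose and 1 fell, with a median of 2.06. Signals of IL7R, the interleukin-7 receptor chain that precursor B cells depend on, were 12.46 and 12.35 in Reh, against 10.61 and 10.60 in Namalwa and 6.80 in SU-DHL-4 (difference 3.70 ± 0.24). SOX4, a transcription factor of early B cells, read 12.07 and 11.94 in Reh, against 7.72 and 3.97 in Namalwa and 9.32 in SU-DHL-4 (difference 4.42 ± 0.82), with the Namalwa arrays far apart. Reh was highest on both arrays for both genes. Smaller rises were seen for ADA, adenosine deaminase of purine salvage (2.58 ± 0.28), and ARPP21, a cyclic AMP-regulated phosphoprotein (3.14 ± 0.36).

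Genes described in ETV6-RUNX1 leukaemia were mostly higher in Reh, with 15 of 21 called higher, 1 lower and a median difference of 1.88. With Reh_2 alone these counts were 14 and 1, and the median was 2.15. PCLO, a scaffold protein of the presynaptic zone, had the largest difference of all genes that passed with both arrays and with Reh_2 alone: it read 13.34 and 13.82 in Reh, against 4.02 and 3.97 in Namalwa and 4.12 in SU-DHL-4 (difference 9.52 ± 0.21, adjusted p = 1.88e-08). It was 9.76 with Reh_2 alone and 5.94 over the mean of its 3 probe sets, of which 2 were higher in Reh. DSC3, a desmosomal cadherin, read 8.88 and 10.19 in Reh, against 3.76 and 3.72 in Namalwa and 3.74 in SU-DHL-4 (difference 5.80 ± 0.31). NID2, a basement membrane protein, differed by 5.38 ± 0.30 and PTPRK, a receptor tyrosine phosphatase, by 7.45 ± 0.30. FBN2, a fibrillin (4.49 ± 0.24), MDK, the growth factor midkine (4.41 ± 0.28), and TUSC3, a subunit of the oligosaccharide transfer complex (3.92 ± 0.41), rose too. IGF2BP1, an RNA-binding protein, was called with both arrays (1.54 ± 0.43, adjusted p = 0.0448) and not with Reh_2 alone (1.45 ± 0.55).

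ETV6, the transcriptional repressor that is fused in this leukaemia and whose second allele is often deleted, was the only member of that list that fell. It read 4.60 and 4.70 in Reh, against 8.58 and 7.82 in Namalwa and 5.39 in SU-DHL-4 (difference -2.15 ± 0.23, adjusted p = 0.000195). All 5 of its probe sets were lower in Reh. Most of the difference lay against Namalwa (-3.55). Against SU-DHL-4 only, the difference was -0.74 and did not pass, and ETV6 was not called between line means. The 10 Hodgkin arrays read 8.28 to 11.58. EPOR, the erythropoietin receptor that has been linked to the fusion, read 8.74 and 8.44 in Reh, against 8.45 and 8.92 in Namalwa and 8.45 in SU-DHL-4, a difference of 0.02 ± 0.18 that did not pass.

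Among 23 stem and progenitor genes, 9 rose and 3 fell, with a median of 0.17 with both arrays and 0.00 with Reh_2 alone, when the counts were the same. ERG, an ETS factor of stem cells and of precursor leukaemia, read 10.90 and 10.93 in Reh, against 3.91 and 4.11 in Namalwa and 4.15 in SU-DHL-4 (difference 6.84 ± 0.30, adjusted p = 1.03e-06). On this probe set the Reh duplicates were close to each other. The other ERG probe sets had wider gaps, such as 8.13 in Reh_1 and 9.33 in Reh_2, or 6.90 and 6.05. All 4 probe sets agreed in direction, with a difference of 4.33 over their mean. FLT3, a cytokine receptor of early progenitors, differed by 3.76 ± 0.23 and PROM1, the CD133 antigen, by 4.73 ± 0.46. LMO2, a bridging protein of blood stem cells that is also made in the germinal centre, differed by 2.50 ± 0.42 and did not pass against SU-DHL-4 only (limma adjusted p = 0.21). MYB, a factor of immature blood cells, was 2.28 ± 0.21 higher. The falls included LIN28B, an inhibitor of let-7 microRNAs, which read 3.52 and 3.63 in Reh, against 10.67 and 10.64 in Namalwa and 3.87 in SU-DHL-4 (difference -3.69 ± 0.12). Reh and SU-DHL-4 were both dim for this gene, which makes its fall a contrast with Namalwa. IGF2BP2, an RNA-binding protein, was also high in Namalwa alone (difference -1.73 ± 0.22). MEIS1, a homeobox factor, differed by -1.49 ± 0.41, with Reh_1 between the mature arrays.

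The remaining largest rises, among genes called in both fits with both Reh arrays above all mature arrays, were spread over signalling and matrix genes. NRIP1, a corepressor of nuclear receptors, rose by 7.61 ± 0.36, and NRN1, a small membrane-anchored protein of neurons, by 7.34 ± 0.51. DUSP6, the phosphatase that switches off ERK, read 10.35 and 12.32 in Reh, against 3.40 and 3.90 in Namalwa and 4.38 in SU-DHL-4 (difference 7.32 ± 0.49). SOCS2, a STAT-induced inhibitor of cytokine signalling, read 11.08 and 12.68 in Reh, against 4.75 and 4.91 in Namalwa and 5.31 in SU-DHL-4 (difference 6.81 ± 0.40). Reh_2 was the higher Reh array for both genes. EFEMP1, a fibulin of the matrix (7.09 ± 0.27), CAPN2, a calcium-dependent protease (6.78 ± 0.22), RERGL, a Ras-related protein (6.70 ± 0.40), AKAP12, an anchor of protein kinase A (6.70 ± 0.35), CSRP2, a LIM domain protein (6.43 ± 0.32), and IRX1, a homeobox factor (6.40 ± 0.21), completed the set. Of these genes CAPN2, EFEMP1, RERGL and IRX1 were also called between line means. The rest of the set was not, and its genes spread further over the Hodgkin arrays, such as 3.45 to 9.28 for NRIP1. Over the mean of all probe sets the rise was smaller by more than 1.5 times for EFEMP1 (4.31), CAPN2 (3.57), AKAP12 (3.41) and PTPRK (4.61), and RAG1 (4.61) and ERG were reduced as much.

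The largest falls were in most cases smaller with Reh_1 in the fit. RASSF6, a Ras association protein linked to apoptosis, read 6.63 and 4.03 in Reh, against 12.001 and 11.69 in Namalwa and 10.05 in SU-DHL-4 (difference -5.62 ± 0.58, and -6.92 with Reh_2 alone). MTX2, a protein of mitochondrial import, read 9.09 and 4.27 in Reh, against 10.56 and 10.46 in Namalwa and 10.34 in SU-DHL-4 (difference -3.75 ± 1.04, and -6.16 with Reh_2 alone). SCRN1, a secernin, read 9.63 and 4.38 in Reh, against 11.75 and 10.89 in Namalwa and 10.95 in SU-DHL-4 (difference -4.12 ± 1.14, and -6.75 with Reh_2 alone). In each case Reh_1 lay between Reh_2 and the mature arrays. The falls with Reh_2 alone were -6.89 for STAMBPL1, a deubiquitinase, -6.13 for RIOX2, a nucleolar hydroxylase, -6.09 for GOLIM4, a Golgi membrane protein, -6.11 for SLC16A7, a monocarboxylate transporter, and -6.28 for BEND4. With both arrays they lay between -4.49 and -3.95. KCNQ5, a potassium channel, ZNF711, a zinc finger protein, and PLEKHA8, a lipid transfer protein, were lower by 4.02, 4.12 and 3.85 with both arrays. ZNF595, another zinc finger gene, was high in Namalwa and not in Reh or SU-DHL-4, at 3.87 and 3.72 in Reh, against 12.27 and 11.42 in Namalwa and 4.32 in SU-DHL-4. RASSF6, MTX2 and SCRN1 were called between line means too.

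At least 4 log2 units separated 110 higher and 9 lower genes with both Reh arrays, against 155 and 88 with Reh_2 alone. The genes most affected were those with the widest gap between the Reh arrays. JCHAIN, the chain that joins secreted IgM and IgA, read 11.84 and 3.50 in Reh, against 12.42 and 12.60 in Namalwa and 12.45 in SU-DHL-4. Reh_1 was close to the mature arrays and Reh_2 far below them. JCHAIN was called between line means with both Reh arrays, and its Hodgkin arrays lay close together, at 3.27 to 3.57. Its difference was -4.81 ± 1.78 with both arrays (adjusted p = 0.125) and -8.98 ± 0.16 with Reh_2 alone, where it was called. BCAT1, a branched-chain aminotransferase (-8.85), TPD52 (-7.91), SCD, the stearoyl-CoA desaturase (-7.14), and RGCC, a regulator of the cell cycle (-6.88), were likewise called with Reh_2 alone. Genes called with both arrays only included HOXC6, SOX5, CXADR, AP1S3 and SYNC, whose differences with Reh_2 alone, -1.98 to -1.28, did not pass. The widest gaps in the other direction were OSR2, PER3, SRGN, MDFI and IFI44, all higher in Reh_2. PER3, a circadian clock gene, read 6.67 and 9.72 in Reh, against 5.14 and 5.02 in Namalwa and 4.46 in SU-DHL-4. SRGN, the granule proteoglycan serglycin, read 4.71 and 7.32 in Reh, against 10.85 and 9.95 in Namalwa and 4.19 in SU-DHL-4, so it was neither high nor low in Reh as a whole.

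Among 24 transcription factors of the B lineage, 7 rose and 6 fell with both arrays, and 6 rose and 8 fell with Reh_2 alone. EBF1, which commits cells to the B lineage, read 12.25 and 12.09 in Reh, against 9.81 and 9.80 in Namalwa and 10.41 in SU-DHL-4 (difference 2.06 ± 0.18, adjusted p = 5.46e-05), so Reh was above every mature array. PAX5, which maintains B identity, read 12.10 and 11.51 in Reh, against 11.96 and 10.95 in Namalwa and 10.78 in SU-DHL-4, a difference of 0.69 ± 0.33 that did not pass. LEF1, a Wnt pathway factor of early B cells (1.47 ± 0.22), MEF2C (1.57 ± 0.25), ZEB2 (2.51 ± 0.40) and BACH2, a repressor of plasma cell fate (0.73 ± 0.17), were higher in Reh. Against Namalwa only, ZEB2 (0.65, limma adjusted p = 0.374) and BACH2 (0.46, adjusted p = 0.125) did not pass, and Reh_1 lay between the Namalwa arrays for ZEB2. MEF2C did not pass against SU-DHL-4 only (adjusted p = 0.162). IRF4, needed in light chain rearrangement and in plasma cells, read 6.08 and 5.65 in Reh, against 9.30 and 9.07 in Namalwa and 5.81 in SU-DHL-4, so the fall of 1.63 lay against Namalwa. SPIB, an ETS factor of mature B cells, read 9.62 and 6.32 in Reh, against 10.48 and 10.54 in Namalwa and 10.71 in SU-DHL-4 (difference -2.64 ± 0.72, and -4.29 with Reh_2 alone). IRF8 was called lower with Reh_2 alone (-5.52 ± 0.56), where its Reh_1 signal was 10.94 and its Reh_2 signal 6.23. IKZF1, the Ikaros factor, and ETS1 were lower by 0.62 and 0.98, and AFF3, a nuclear factor of lymphoid cells, fell by 2.63 with both arrays. Against SU-DHL-4 only, IKZF1 (-0.37), ETS1 (-0.70) and AFF3 (-1.71) did not pass. Over the mean of all probe sets, BACH2 (0.46) and IKZF1 (-0.51) no longer passed.

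The 2 chains that carry the signal of the B cell receptor did not pass the test. CD79A read 12.25 and 12.16 in Reh, against 12.03 and 11.92 in Namalwa and 12.72 in SU-DHL-4 (difference -0.14 ± 0.18). CD79B read 11.42 and 11.73 in Reh, against 11.81 and 11.82 in Namalwa and 11.14 in SU-DHL-4 (difference 0.10 ± 0.17). The Reh values of both genes lay within the range of the mature arrays. Of 21 receptor signalling genes, 4 rose (19.0%, against 8.13% of all genes) and 1 fell (4.76%, against 4.01%). BLNK, the adaptor below the receptor, was higher by 1.65 ± 0.33, PTPN6, the phosphatase SHP-1, by 1.62 ± 0.23, PIK3CD, a phosphoinositide kinase, by 1.21 ± 0.23 and VAV1, an exchange factor, by 0.88 ± 0.21. VAV1 did not pass with Reh_2 alone (0.80) or against SU-DHL-4 only (0.31). MALT1, a paracaspase of the NF-kB arm, was lower by 0.75. With Reh_2 alone 3 rose and 5 fell. LYN, a kinase that phosphorylates the receptor, then differed by -2.78 ± 0.24, BLK, a related kinase, by -2.33 ± 0.35 and RASGRP3, an activator of Ras, by -4.39 ± 0.51.

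The calls among mature surface antigens depended on the Reh array. With both arrays 1 of 29 rose, 2 fell and the median was -0.81. With Reh_2 alone 1 rose, 16 fell and the median was -1.39, and 16 of the 29 genes read more than 1 log2 unit higher in Reh_1 than in Reh_2. MS4A1, which encodes CD20, read 11.47 and 4.12 in Reh, against 7.98 and 7.04 in Namalwa and 12.48 in SU-DHL-4. Its difference was -2.20 ± 1.59 with both arrays (adjusted p = 0.488) and -5.87 ± 0.36 with Reh_2 alone. Reh_2 was below every mature array, and Reh_1 lay between Namalwa and SU-DHL-4. FCRLA, an Fc receptor-like protein of the B cell interior, differed by -6.59 ± 0.73 with Reh_2 alone, TNFRSF17, the BCMA receptor, by -6.12 ± 0.30, CD37, a tetraspanin, by -5.10 ± 0.45, CD27, a memory B cell receptor, by -5.10 ± 0.66 and CD86, a costimulatory ligand, by -4.60 ± 0.32. None of these passed with both arrays. CD180, a Toll-like receptor homologue, read 8.83 and 6.36 in Reh, against 9.82 and 9.21 in Namalwa and 9.85 in SU-DHL-4, and fell in both fits (-2.09 ± 0.56, and -3.32 with Reh_2 alone), as did SLAMF6 (-1.98 ± 0.55, and -3.18). CD24, a sialoglycoprotein abundant on precursor B cells, was the gene that rose, at 13.05 and 13.45 in Reh, against 12.15 and 12.53 in Namalwa and 8.63 in SU-DHL-4 (difference 2.77 ± 0.18).

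**Figure D3:**
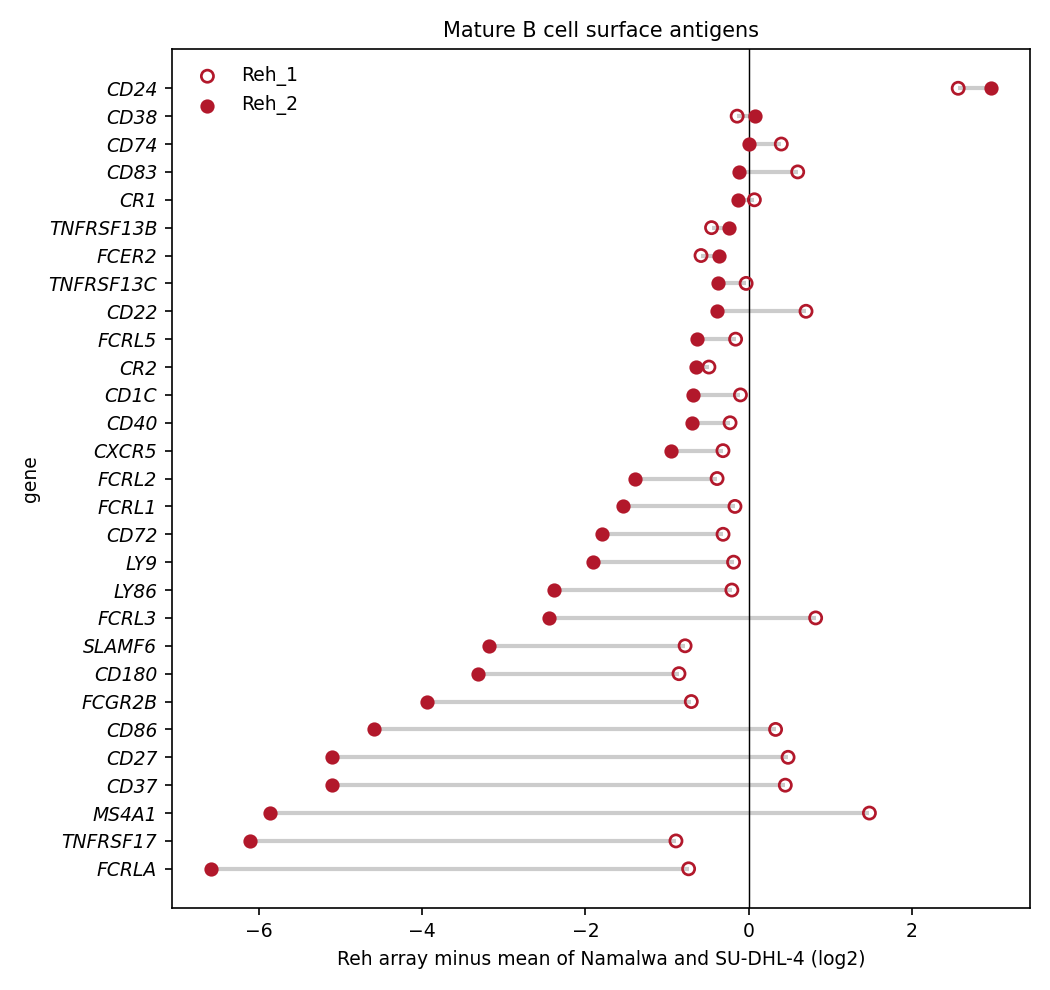
Each Reh array minus the mean of Namalwa and SU-DHL-4 in log2 signal (x axis) for the 29 measured genes of mature B cell surface antigens (y axis, ordered by Reh_2), with Reh_1 as open circles and Reh_2 as filled circles. A line joins the arrays of a gene. For 16 genes Reh_1 lies more than 1 log2 unit to the right of Reh_2.

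Germinal centre genes followed the same course, with 3 of 17 higher and 1 lower with both arrays, 2 higher and 6 lower with Reh_2 alone, and medians of -0.60 and -1.42. BCL6, the master repressor of the germinal centre, read 12.24 and 10.43 in Reh, against 11.64 and 10.18 in Namalwa and 13.04 in SU-DHL-4 (difference -0.64 ± 0.56), and did not pass. GCSAM, a germinal centre signalling adaptor, fell in both fits (-1.47 ± 0.24, and -1.72 with Reh_2 alone). RGS13, a regulator of G protein signals (-5.63), STAP1 (-4.42) and ELL3 (-4.39) were called lower with Reh_2 alone. PAG1, a membrane adaptor, was higher with both arrays (1.49 ± 0.40). With both arrays 17.6% of the germinal centre list was higher and 5.88% lower, against 8.13% and 4.01% of all genes.

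Among 20 immunoglobulin and plasma cell genes, 4 rose and 3 fell with both arrays, and 4 rose and 8 fell with Reh_2 alone. IGHM, the mu heavy chain, read 11.19 and 11.65 in Reh, against 13.36 and 13.03 in Namalwa and 6.62 in SU-DHL-4. Reh lay between the mature lines, and the mean difference of 1.51 ± 0.19 joins a deficit against Namalwa with an excess over SU-DHL-4. It was 0.24 over the mean of 5 probe sets and did not pass. IGKC, the kappa light chain, read 11.26 and 6.43 in Reh, against 6.59 and 7.56 in Namalwa and 12.18 in SU-DHL-4, and was called lower with Reh_2 alone (-3.20 ± 0.48). IGLC1, a lambda constant region, read 10.14 and 9.35 in Reh, against 14.24 and 14.32 in Namalwa and 10.57 in SU-DHL-4 (difference -2.68 ± 0.25). Lambda constant genes are near-identical and can share probes, and 1 of the 9 IGLC1 probe sets was higher in Reh. XBP1, the plasma cell and stress factor, read 11.20 and 11.78 in Reh, against 10.58 and 10.44 in Namalwa and 6.72 in SU-DHL-4 (difference 2.87 ± 0.22). ELL2, an elongation factor of secretory B cells (1.83 ± 0.45), and IGHD, the delta heavy chain (2.56 ± 0.35), rose, and DERL3, a protein of endoplasmic reticulum quality control, was lower by 0.77. IGHD read 8.44 and 9.67 in Reh, against 7.76 and 8.59 in Namalwa and 4.81 in SU-DHL-4, so Reh_1 lay below Namalwa_2. Against Namalwa only, neither IGHD (0.88, limma adjusted p = 0.162) nor ELL2 (1.21, adjusted p = 0.128) passed, and DERL3 did not pass against SU-DHL-4 only (-0.17).

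Of 15 genes of antigen presentation by MHC class I, 12 rose and 0 fell in transcript signal with both arrays, and 13 rose with Reh_2 alone. The medians were 1.48 and 1.81, and both Reh arrays lay above all mature arrays for 14 of the 15, against 13.9% of all genes. HLA-B, a classical class I heavy chain, read 13.41 and 13.87 in Reh, against 12.63 and 12.49 in Namalwa and 9.86 in SU-DHL-4 (difference 2.43 ± 0.18, adjusted p = 2.15e-05). PSMB9, an immunoproteasome subunit, read 11.27 and 11.80 in Reh, against 8.97 and 9.20 in Namalwa and 8.59 in SU-DHL-4 (difference 2.70 ± 0.20, adjusted p = 2.05e-05). NLRC5, the transactivator of class I genes, read 8.43 and 9.19 in Reh, against 7.88 and 7.69 in Namalwa and 5.41 in SU-DHL-4 (difference 2.21 ± 0.21). HLA-C, HLA-E, HLA-F and HLA-G were 1.48 to 2.34 higher. HLA genes are polymorphic and alike in sequence, so probes can differ in their match to each line or detect several of the genes. TAP1, a subunit of the peptide transporter, was 1.47 ± 0.21 higher, PSMB8 and PSMB10, the other immunoproteasome subunits, 1.51 and 0.99, and ERAP1, a trimming peptidase, 1.47. B2M, the light chain of every class I molecule, differed by 0.37 ± 0.14 and did not pass. Set against the Hodgkin lines, HLA-B (0.16), HLA-C (0.05) and PSMB9 (0.20) did not pass, whereas NLRC5 (1.42) did. No member was called between line means.

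Of 16 class II genes, 5 rose and 0 fell with both arrays, and 3 rose and 1 fell with Reh_2 alone. HLA-DRA, an alpha chain of class II, read 13.16 and 12.31 in Reh, against 12.14 and 11.92 in Namalwa and 12.54 in SU-DHL-4 (difference 0.45 ± 0.24), and CIITA, the class II transactivator, differed by 0.54 ± 0.18. Neither passed. HLA-DPA1 (1.18 ± 0.14), HLA-DOA (1.29 ± 0.18) and HLA-DMA (1.13 ± 0.22), the last of these a peptide loading chain, rose in both fits, and HLA-DMB (0.70 ± 0.20) with both arrays only. HLA-DOA did not pass over the mean of its 5 probe sets (0.25). Against SU-DHL-4 only, neither HLA-DOA (0.47) nor HLA-DMA (0.49) passed, and HLA-DMB differed by -0.43, so these differences lay mostly against Namalwa.

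Of 27 interferon response genes 13 rose, 0 fell and 14 did not pass with both arrays, and the median was 1.31, against -0.05 over all genes. With Reh_2 alone 13 rose and 1 fell, and no member was called between line means. IFIT3, an antiviral protein induced by interferon, read 8.99 and 9.82 in Reh, against 7.34 and 6.66 in Namalwa and 3.47 in SU-DHL-4 (difference 4.17 ± 0.39, adjusted p = 8.80e-05). GBP1, a guanylate-binding protein induced by interferon gamma, read 8.25 and 9.93 in Reh, against 4.20 and 4.77 in Namalwa and 4.96 in SU-DHL-4 (difference 4.37 ± 0.54). IFIH1, the RNA sensor MDA5, read 7.88 and 8.24 in Reh, against 5.36 and 3.97 in Namalwa and 3.68 in SU-DHL-4 (difference 3.89 ± 0.35). Both Reh arrays were above every mature array for all of these. IFI44 (3.26 ± 0.71), OAS3 (2.91 ± 0.27), IFIT1 (2.89 ± 0.48), IFI6 (2.62 ± 0.22) and IRF7, the factor that amplifies interferon genes (1.70 ± 0.21), rose too. MX1 (0.94 ± 0.49) and IFITM1 (1.88 ± 0.60) did not pass, and both were higher in Namalwa_1 than in either Reh array.

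**Figure D4:**
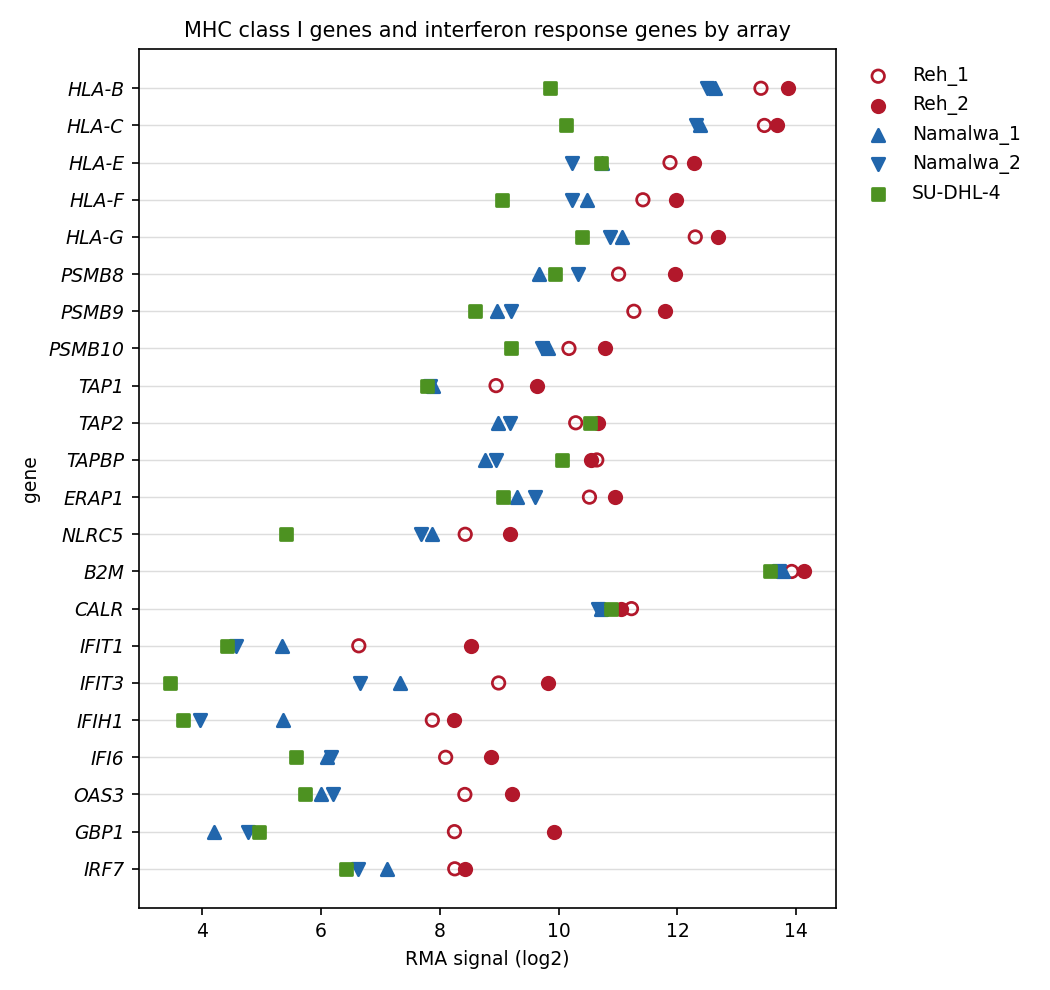
Log2 RMA signal (x axis) of the 15 measured MHC class I genes and 7 interferon response genes (y axis) on the 5 arrays, Reh_1 as open circles, Reh_2 as filled circles, Namalwa as triangles and SU-DHL-4 as squares. Both Reh arrays lie right of all mature arrays for every gene drawn except TAP2.

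NF-kB subunits and targets divided into 6 higher, 1 lower and 19 that did not pass of 26, and into 6 higher and 5 lower with Reh_2 alone. TNFAIP3, the ubiquitin-editing inhibitor A20, read 11.53 and 12.10 in Reh, against 7.28 and 5.73 in Namalwa and 6.15 in SU-DHL-4 (difference 5.49 ± 0.44, adjusted p = 3.36e-05). TNF, the cytokine, differed by 2.73 ± 0.34, IRF1 by 2.11 ± 0.23 and LTB, a membrane lymphotoxin, by 2.00 ± 0.27. CCL4, a chemokine, read 6.61 and 5.25 in Reh, against 10.83 and 10.07 in Namalwa and 7.50 in SU-DHL-4, and was the member that fell (-3.05 ± 0.38). With both arrays 23.1% of this list was higher and 3.85% lower, against 8.13% and 4.01% of all genes. The lower share was thus near that of all genes.

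Cytokine receptor and STAT genes gave 8 higher and 2 lower of 33, and 8 higher and 5 lower with Reh_2 alone. Besides SOCS2, IL7R and FLT3, JAK3, the kinase bound to the common gamma chain, was higher by 2.92 ± 0.18 on its brightest probe set. The other 3 of its 4 probe sets were lower in Reh, and the difference was 0.59 over their mean. IL10RA, the interleukin-10 receptor (-1.99 ± 0.48), and SOCS1, an inhibitor of JAK kinases (-1.73 ± 0.40), were lower. In the adhesion list 7 of 32 rose and 1 fell, and with Reh_2 alone 9 rose and 8 fell. VIM, the filament vimentin, read 12.56 and 13.54 in Reh, against 7.17 and 6.69 in Namalwa and 6.42 in SU-DHL-4 (difference 6.38 ± 0.26), and stayed called between line means (adjusted p = 0.0038). CD58, the ligand of CD2, differed by 4.40 ± 0.26, and CD9, a tetraspanin of precursor B cells, by 2.32 ± 0.39 with Reh overlapping Namalwa. PTK2, the focal adhesion kinase, differed by 1.79 ± 0.37 with SU-DHL-4 at the level of Reh, and did not pass over the mean of its probe sets (0.75). That mean gave 3.39 for VIM and 2.76 for CD58. ITGB2, the beta-2 integrin chain, was lower by 1.73. With both arrays 21.9% of the adhesion list was higher and 3.13% lower, against 8.13% and 4.01% of all genes. For the cytokine receptor and STAT list these shares were 24.2% and 6.06%.

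Cell cycle genes were called at about the share of all genes. Of 33, 3 rose (9.09%, against 8.13% of all genes) and 1 fell (3.03%, against 4.01%) with both arrays. The counts were the same with Reh_2 alone, and the median was 0.06 with both arrays as deposited, -0.05 with centred arrays and 0.14 with Reh_2 alone. CCND3, the D cyclin on which precursor B cells rely, read 12.61 and 13.30 in Reh, against 11.64 and 11.18 in Namalwa and 10.42 in SU-DHL-4 (difference 2.04 ± 0.25). CCND2, another D cyclin, was dim on all 5 arrays and differed by -0.30 ± 0.24. CDKN1B, the inhibitor p27, was 2.47 ± 0.27 higher and CDC25A, a phosphatase that starts S phase, 0.93 lower. MYC read 12.69 and 12.54 in Reh, against 13.07 and 13.20 in Namalwa and 12.60 in SU-DHL-4 (difference -0.26 ± 0.25), and did not pass. Of 19 MYC network and ribosome assembly genes 1 rose and 5 fell, and with Reh_2 alone 1 rose and 3 fell. The falls in SRM, spermidine synthase, and RRS1, a ribosome assembly factor, were 1.34 and 1.20 and were called in both fits, and TERT, the telomerase reverse transcriptase, was 1.85 ± 0.27 higher.

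Apoptosis genes gave 3 higher and 2 lower of 24, and 6 higher and 4 lower with Reh_2 alone. With both arrays these shares were 12.5% higher and 8.33% lower, against 8.13% and 4.01% of all genes. BCL2, the survival protein, read 10.72 and 10.38 in Reh, against 8.69 and 7.18 in Namalwa and 4.10 in SU-DHL-4 (difference 4.54 ± 0.37, adjusted p = 3.64e-05). The order was Reh, Namalwa, SU-DHL-4, and 2 of its 4 probe sets were lower in Reh and the difference was 1.40 over their mean. BCL2L2, a related survival protein, was 1.92 ± 0.24 higher. BIK, a BH3-only killer, read 6.69 and 5.48 in Reh, against 11.77 and 11.85 in Namalwa and 8.36 in SU-DHL-4 (difference -4.002 ± 0.34), and HRK, another, was lower by 1.15 against Namalwa, with SU-DHL-4 between the Reh arrays.

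Of 18 genes recurrently deleted in precursor B leukaemia, 4 rose and 4 fell with both arrays, and 3 rose and 7 fell with Reh_2 alone. The falls were ETV6, VPREB1, IKZF1 and TBL1XR1, a corepressor subunit (-0.47 ± 0.13). Against SU-DHL-4 only, ETV6, IKZF1 and TBL1XR1 (-0.36) did not pass. CDKN2A, which encodes p16 and ARF, read 9.82 and 5.99 in Reh, against 10.70 and 10.95 in Namalwa and 10.47 in SU-DHL-4, and was called lower with Reh_2 alone (-4.66 ± 0.26). TOX, a lymphoid nuclear factor, was also called then (-4.92 ± 0.46). CD200, an immune checkpoint ligand of the same deletion list, rose by 5.64 ± 0.26, and CREBBP, a histone acetyltransferase, by 0.77 ± 0.14. Neither TBL1XR1 (-0.53) nor CREBBP (0.21) passed over the mean of its probe sets. Signal on an array does not show whether a gene is deleted. Of 14 glucocorticoid response genes 3 rose and 1 fell, and with Reh_2 alone 4 rose and 1 fell. DUSP1, a phosphatase of MAP kinases, differed by 5.43 ± 0.30 and TSC22D3, the GILZ protein, by 1.42 ± 0.27, while the receptor NR3C1 differed by 0.47 ± 0.36 and did not pass. With both arrays 21.4% of the glucocorticoid list was higher and 7.14% lower, against 8.13% and 4.01% of all genes. Of 27 chromatin modifiers 4 rose and 2 fell, and with Reh_2 alone 5 rose and 2 fell. For the chromatin list with both arrays, 14.8% were higher and 7.41% lower, against 8.13% and 4.01% of all genes. KDM5B, a histone demethylase (3.38 ± 0.18), DNMT3A, a DNA methyltransferase (2.75 ± 0.25), and TET2, which oxidises methylcytosine (2.32 ± 0.30), were higher. For TET2 the Namalwa arrays overlapped Reh and SU-DHL-4 was low.

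**Figure D5:**
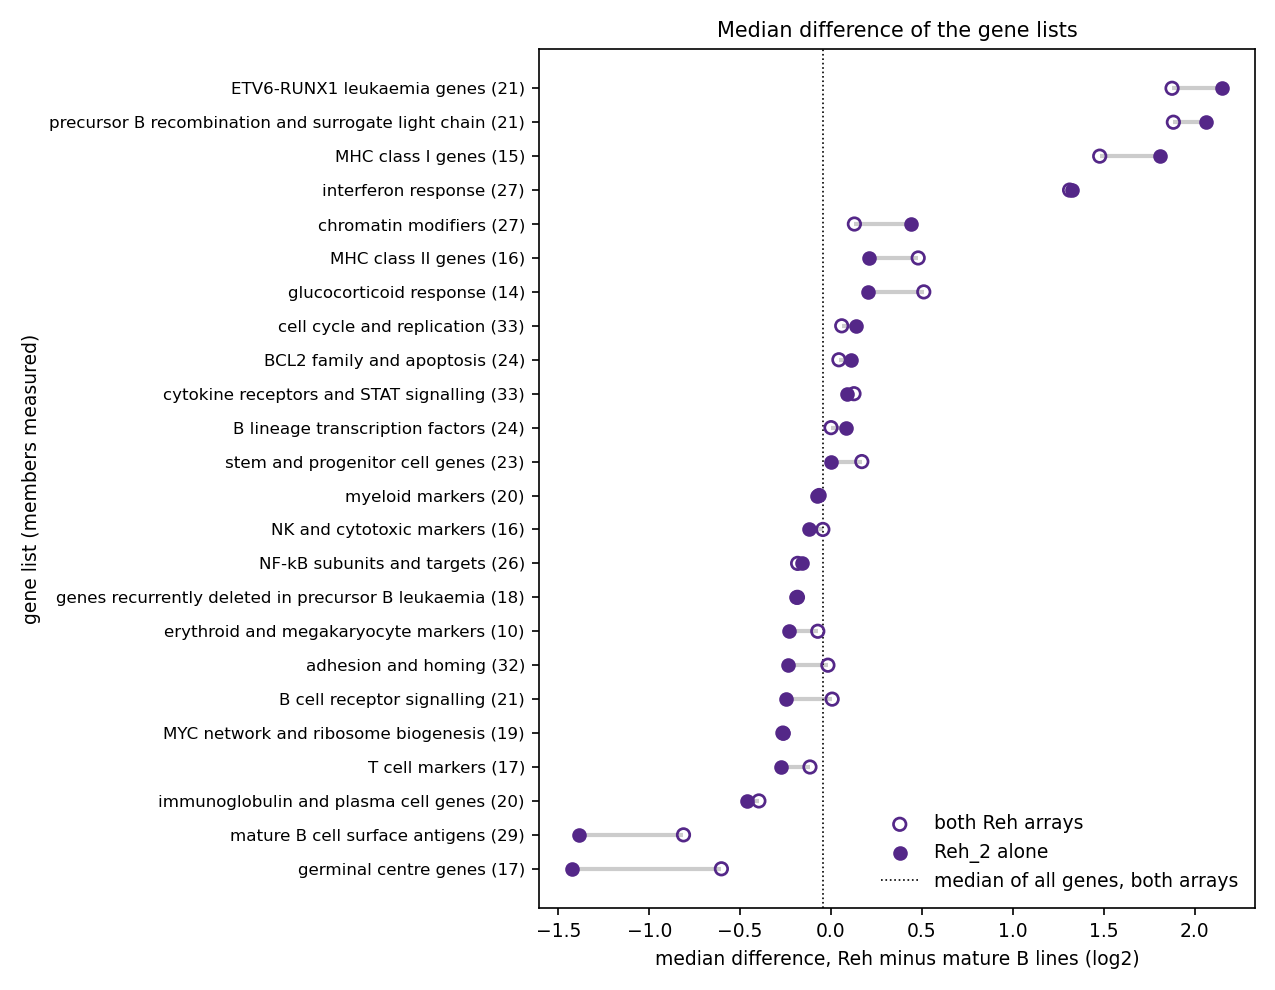
Median difference, Reh minus the mean of Namalwa and SU-DHL-4, in log2 signal (x axis) for the 24 gene lists (y axis, number of measured members in brackets), with both Reh arrays as open circles and Reh_2 alone as filled circles. The dotted line is the median of all genes, -0.05. The highest medians belong to ETV6-RUNX1 leukaemia, precursor B, MHC class I and interferon genes, and the widest gaps between the fits to germinal centre genes and mature surface antigens.

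Markers of other blood cells were mostly low on these arrays. Among 17 T cell genes 2 rose (11.8%, against 8.13% of all genes) and 0 fell (against 4.01%). The rises were TRAT1, by 0.70, and GATA3, by 0.95, both below a log2 signal of 6 on all 5 arrays. TRAT1 read 3.96 and 4.225 in Reh, against 3.42 and 3.41 in Namalwa and 3.37 in SU-DHL-4. GATA3 read 5.785 and 5.64 in Reh. It did not pass with Reh_2 alone (0.88) or over the mean of its probe sets (0.21). CD3E read 5.66 and 5.03 in Reh, against 6.03 and 5.18 in Namalwa and 5.76 in SU-DHL-4. With Reh_2 alone 1 rose and 2 fell. The summed linear signal of the T cell list was 2257 and 841 in Reh, against 1779 and 1092 in Namalwa and 4181 in SU-DHL-4. Among 20 myeloid genes 0 rose and 1 fell (CEBPA, by 0.95), which is 5.0%, against 4.01% of all genes. CEBPA did not pass against SU-DHL-4 only (-0.125). The summed signal of the myeloid list was 1653 and 1813 in Reh, against 2187 and 2165 in Namalwa and 1627 in SU-DHL-4. MPO, myeloperoxidase, read 4.53 and 6.04 in Reh, against 4.44 and 4.52 in Namalwa and 4.60 in SU-DHL-4, and was called with Reh_2 alone (1.498 ± 0.26), so that 1 myeloid gene rose and 1 fell in that fit. Of 16 NK and cytotoxic genes only FGFBP2 rose in either fit (5.24 ± 0.28), and of 10 erythroid and megakaryocyte genes none passed at an adjusted p under 0.05 in limma in either fit.

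The same genes were set against the 6 Hodgkin lines, which share the Reh arrays with the comparison above. With both Reh arrays 13.2% of genes were higher in Reh than in the Hodgkin lines and 14.2% were lower. With Reh_2 alone these shares were 12.9% and 11.8%. DNTT read 4.79 to 5.30 on the 10 Hodgkin arrays, RAG1 3.95 to 4.41, IGLL1 4.30 to 4.76 and DSC3 3.52 to 3.89, all below both Reh arrays. ERG reached 5.64 and PCLO 7.16. VPREB1 was dim there as in Reh, at 3.70 to 4.22, with a difference of 0.05 ± 0.17. Some of the largest rises were in genes that the Hodgkin lines also had at high signal: VIM read 13.26 to 14.66 on the Hodgkin arrays, CAPN2 11.31 to 12.51 and SOCS2 8.09 to 12.26.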

How the data were processed

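Total RNA of 15 cell line cultures was hybridised to Affymetrix U133 Plus 2.0 arrays. The deposited log2 values are probe set signals made by the authors with RMA, per the submitters' processing notes. As generally run, RMA corrects background, gives arrays 1 distribution and summarises probes, and it compresses low signals. Its version is not given in the sources used here, nor is a genome build.

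Of 54675 probe sets, 62 controls, 1801 with several gene symbols and 11721 with none were left out. The remaining 41091 gave 19775 genes, each represented by its brightest probe set. Differences were fitted in limma 3.58.1 (R 4.3.3) with 1 mean per line over all 15 arrays (6 residual degrees of freedom, 5 with Reh_2 alone), empirical Bayes moderation and Benjamini-Hochberg adjustment over all genes. The fit was tested on simulated data. That simulation gave both Reh arrays the same expected signal, so it does not address the SU-DHL-4 signal on Reh_1. Arrays give no read depth, so the number of arrays limits precision. SU-DHL-4 has 1 array and is taken to vary like the duplicated lines. Errors are standard errors.

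The genes and lists were chosen with earlier results of these data known. The genes named were 4 markers, the 15 largest rises and falls called in both fits with Reh apart, up to 4 called members a list and direction, genes called in 1 fit only, the widest gaps between the Reh arrays, and a fixed set of B lineage genes. Further list members are named as examples and were chosen after their values were seen. Promoters were read from RefSeq GRCh38.p14.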

Additional observations from a re-analysis of the deposited data

How the results depend on the processing

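Leaving out 1 array at a time gave 965 to 2080 higher and 414 to 1348 lower genes. The lowest counts came without Reh_2 and the highest without Namalwa_1. The 5 arrays alone gave 439 and 61, line means 123 and 19 (187 and 59 with Reh_2 alone), and a test against a difference of 1 log2 unit 406 and 55. Lower genes numbered 461 against SU-DHL-4 only, 1201 for Reh_2 against SU-DHL-4 and 1217 for Reh_2 with the mean of all probe sets. With centred arrays 1244 were higher and 1062 lower. The other alternatives left both counts within 1.5 times those reported. A fit with the replicate number as a replicate block gave 1767 and 937. Deviations of same-numbered arrays correlated by 0.14 to 0.36 among the duplicated lines other than Namalwa, Reh included, and by -0.07 to 0.06 with Namalwa. Since the labels name no shared batch and not every pair was correlated, the numbers were not taken to pair the samples. With Reh_2 alone, the line means, the SU-DHL-4 contrast and the probe set mean were chosen after seeing the data, as was the Hodgkin contrast without Reh_1.

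Of the genes named, 13 lost their call against Namalwa only and 44 against SU-DHL-4 only, 121 between line means and 69 when the 5 arrays were fitted alone, without a change of sign. Against a single mature line the called genes that changed sign were CD9 (-0.18), IGF2BP1 (-0.15) and IGHM (-1.78) against Namalwa only, and HLA-DMB (-0.43), HRK (0.10), IGF2BP2 (0.92), IRF4 (0.056) and PTK2 (-0.14) against SU-DHL-4 only. With Reh_2 alone against 1 line, these read -0.23 for IGF2BP1 and -1.55 for IGHM against Namalwa, and -0.66 for HLA-DMB, 0.997 for IGF2BP2 and -0.16 for PTK2 against SU-DHL-4. In these the other mature line, left out by construction, carried the difference.

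Genes without a call with both Reh arrays changed sign as well. Against Namalwa only they were BCL6 (0.42), CCND2 (0.34), CD79A (0.23), CD79B (-0.24), EPOR (-0.093), IGKC (1.77), MS4A1 (0.29), MX1 (-0.40), OSR2 (-2.10), RGS13 (0.17), STAP1 (0.07) and TOX (1.65), and with Reh_2 alone CD79A (0.19), CD79B (-0.083), EPOR (-0.24), MX1 (-0.37) and OSR2 (-0.48). Against SU-DHL-4 only they were CD34 (0.029), MYC (0.009), SRGN (1.83) and TAP2 (-0.056), and with Reh_2 alone EPOR (-0.011), HLA-DRA (-0.23), NR3C1 (-0.23) and SRGN (3.13). CD79B was -0.004 with centred arrays, -0.26 over the mean of probe sets and -0.087 over that mean with Reh_2 alone, where HLA-DRA was -0.016. EPOR was -0.082 with centred arrays, -0.081 with arrays quantile-normalized again and -0.127 between line means with Reh_2 alone, where SRGN was 0.024.

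Leaving out 1 array spanned zero for BCL6 (-1.54 to 0.26), CCND2 (-0.66 to 0.067), CD27 (-5.10 to 0.48), CD34 (-0.16 to 0.001), CD37 (-5.10 to 0.45), CD79B (-0.052 to 0.255), CD86 (-4.60 to 0.33), EPOR (-0.13 to 0.17), IGKC (-3.20 to 1.63), MPO (-0.007 to 1.498), MS4A1 (-5.87 to 1.48), OSR2 (-0.97 to 2.28), RGCC (-6.88 to 0.46), RGS13 (-5.63 to 1.43), SRGN (-2.58 to 0.024), STAP1 (-4.42 to 0.59) and TOX (-4.92 to 1.58). VPREB1 differed from the Hodgkin lines by -0.22 without Reh_1. List medians were given without a test. Signal near background was not assessed, because detection calls were not used here.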
